A study of Gallus gallus with 14 samples.

Results

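The 100 EST clones described here are those whose signal moved most with doxycycline (DOX) on the arrays labelled DKO-R, 50 higher and 50 lower. They were chosen among the 7749 clones, of 12854 on the array, that were measured on all 4 DKO-R DOX arrays. A clone had to lie on the same side of 0 on all 4, and the 50 highest and the 50 lowest means were kept from 611 clones above and 506 clones below 0, with the 47 clones that the study's supplementary list names left out. The members were thus chosen on the DKO-R values, which are given as a description with no test. They were then read in the other lines, on arrays that the choice did not use.

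DT40 is a chicken pre-B cell line with its own clathrin heavy-chain genes. DKO-S cells lack these genes and live on a clathrin transgene that a Tet-Off promoter drives. DKO-R cells descend from DKO-S, carry the same transgene and survive better when it is off. RNA of cells grown with DOX was hybridised against RNA of the same line grown without it, each pair on 2 arrays with the dyes exchanged. The source labels mark the extracts of each line with A or B, called cultures here. Neither these labels nor the array methods state that A and B were separate cultures. In addition, 2 direct arrays set DKO-R against DKO-S of culture A, both without DOX. The labels and the array methods do not state the dose or time of DOX. All cells grew in RPMI 1640 with foetal calf serum and, at levels that varied between experiments, chicken serum. The array methods do not state the chicken serum level, which the paper reports to alter survival of DKO-S and DKO-R cells without clathrin.

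Clathrin forms the coat of vesicles that carry receptors with their cargo, such as transferrin with its iron, from the surface into the cell. A Tet-Off promoter is active until a tetracycline such as DOX binds its activator, so that DOX shuts clathrin off in DKO-S and DKO-R, while wild-type DT40 cells meet the drug alone. The comparison of the lines therefore asks which clones move with the drug in cells that keep their clathrin. DOX, like other tetracyclines, also binds bacterial and mitochondrial ribosomes. The clones are cDNA targets spotted on glass, known by ESTs, which are short sequence reads, and they carry library names. None of the 100 members could be matched to a gene through the RefSeq table used here (0 matched), so no gene name, role or sequence is given for them, and lists of B cell, stress or mitochondrial genes could not be counted among them. In RNA of whole cultures, fewer cells with a transcript and less of it per cell cannot be told apart.

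The arrays differed in quality and their labels disagreed in part. Of the spots that are not controls, 55.1 to 72.1% passed the confidence filter on 12 arrays, but 22.7% and 2.13% on the DKO-S arrays of culture B with DOX in Cy3 and of culture A with DOX in Cy5. DKO-S was therefore read on its other 2 arrays, culture A with DOX in Cy3 and culture B with DOX in Cy5, so that in this line culture and dye cannot be told apart. Arrays with opposite dyes, turned to the same direction, mostly correlated below 0 across clones. Pearson's r was -0.57 between both kept DKO-S arrays, -0.25 within DKO-R culture A and 0.03 within culture B. The immunoglobulin J chain clone DT40subNB_9D2, a secretory B cell transcript, went against the line names. The direct arrays gave it 3.03 and 2.74 log2 units higher in DKO-R, while within a dye the 4 log2 differences of DKO-R from DKO-S on the DOX arrays were -2.84, -2.78, -2.62 and -2.44. The names DKO-R and DKO-S below are thus those of the labels, and every direction in these lines is that of the arrays so labelled.

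Values are log2 ratios of DOX over no DOX, centred on the median of each array. The 4 arrays of a line are given in the order culture A with DOX in Cy3, culture A with DOX in Cy5, and culture B likewise. The means of the 50 higher members on the DKO-R arrays ran from 0.92 to 0.55 and those of the 50 lower members from -0.83 to -0.43. The higher members had medians of 0.44, 0.54, 0.93 and 0.78 on the 4 arrays, and the lower members medians of -0.46, -0.40, -0.71 and -0.38. At the threshold stood dkfz426_14g14r1 as the last higher member and DT40subNB_11D10 as the first left out, both with a mean of 0.55. Among the lower clones, ChEST1004M23 was the last taken and DT40subNB_8D12 the first left out, both at -0.43. Over all clones measured on 4 DKO-R arrays, 7.9% lay above and 6.53% below 0 on all of them, a background printed here only to size the choice.

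**Figure D1:**
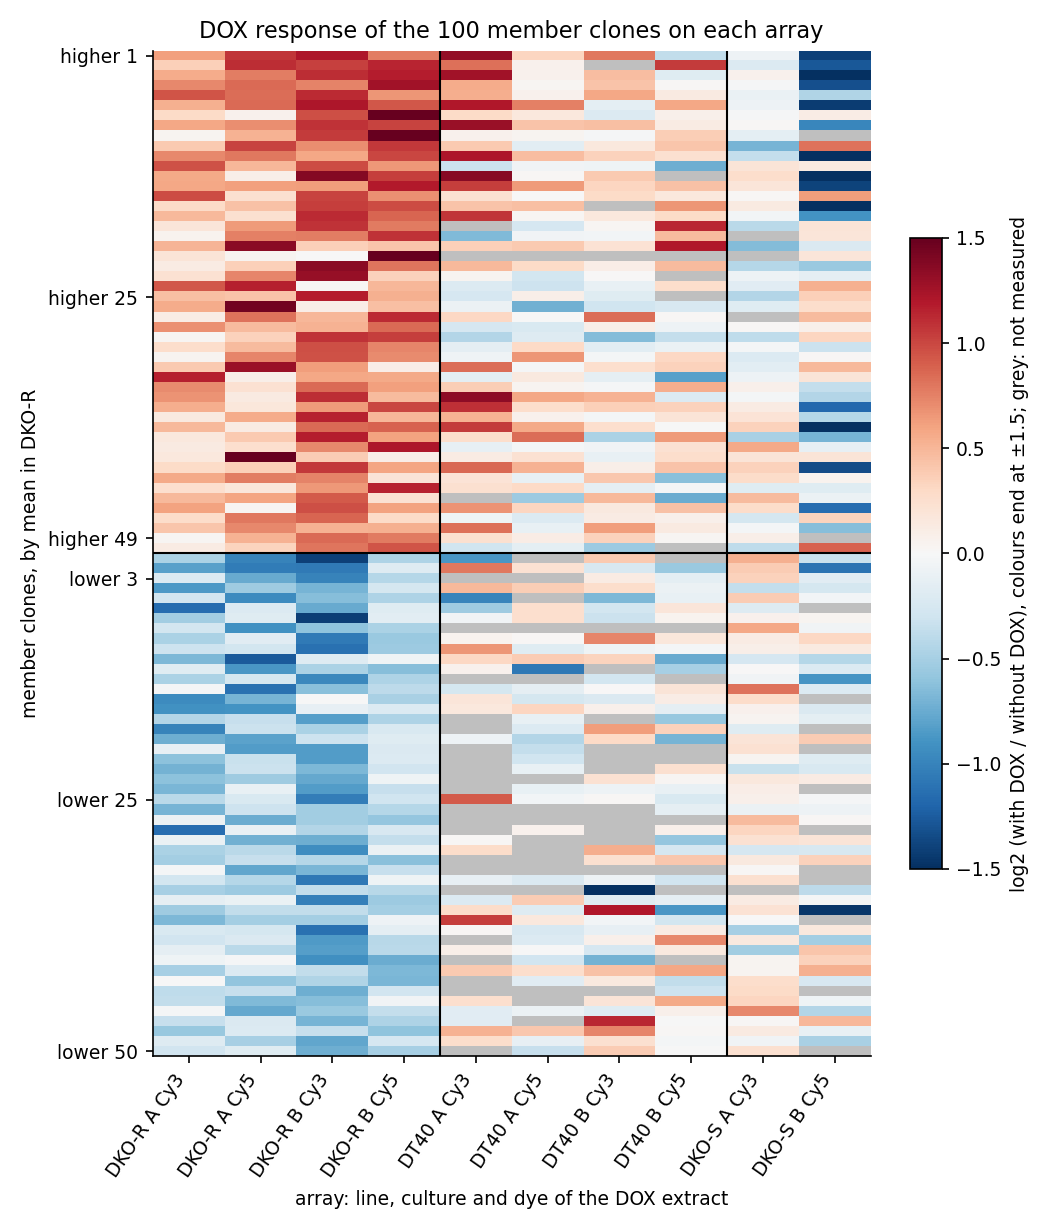
Log2 ratio of DOX over no DOX (colour) of the 100 members (rows, ordered by their mean in DKO-R) on 10 arrays (columns: line, culture and dye of the DOX extract), with grey for values that were not measured. The DKO-R columns are red for the 50 higher and blue for the 50 lower members by choice. Many upper rows turn deep blue on the DKO-S array of culture B, and many lower rows are grey in DT40.

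Under the main settings most of the higher members came from a single EST library. Of the 50, 30 carried a name starting with DT40subNB, a library that gave 15.1% of the 7703 clones that could be chosen. The others were 13 ChEST, 4 pgn1c, 2 pat.pk and 1 dkfz426 clones. The lower members were 45 ChEST and 5 DT40subNB clones, with ChEST at 65.2% of the clones that could be chosen. The higher members were bright and the lower ones dim. On a percentile scale of mean intensity over the DT40 arrays, their medians were 88.9 and 33.0, against 66.6 for all clones that could be chosen. No EST was shared by members (0 clones), but clones of the same gene cannot be recognised without gene names.

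**Figure D2:**
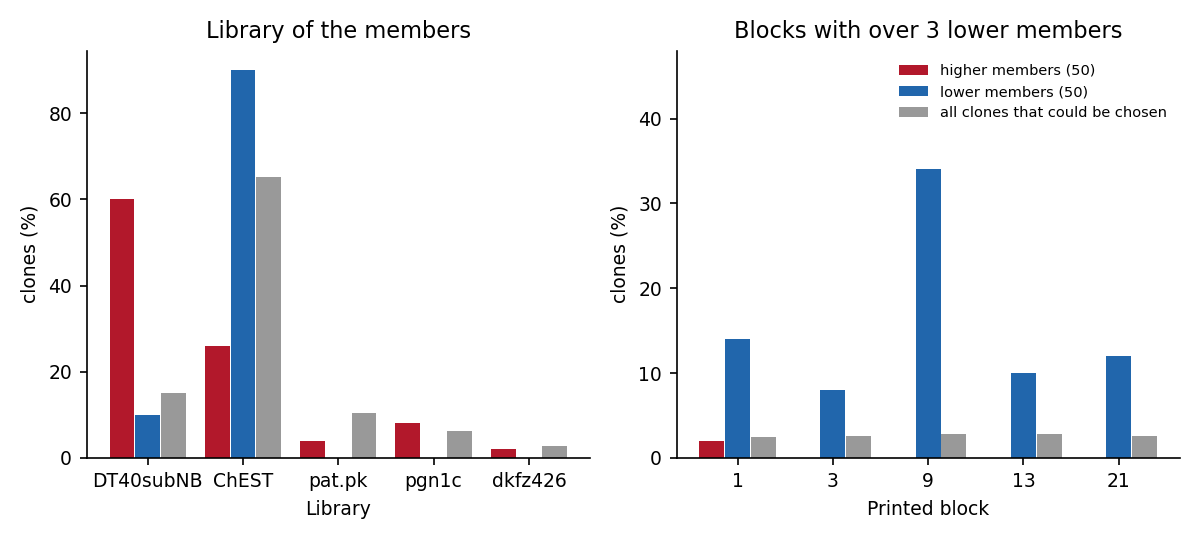
Share of clones (%) by EST library (left) and by printed block (right, the blocks with over 3 lower members) for the higher members (red), the lower members (blue) and all 7703 clones that could be chosen (grey). DT40subNB clones make up 30 of the 50 higher members, and block 9 holds 17 of the 50 lower members and none of the higher ones.

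In wild-type DT40 cells, which keep their clathrin, the higher members leaned to the same side. Their median DT40 response was 0.24 over the 41 members measured on all 4 arrays, against 0.01 over all clones that could be chosen, and 31 of the 41 had a mean above 0. On the single arrays the medians were 0.36, 0.06, 0.10 and 0.19. Of the 41 members, 13 lay above 0 on all 4 DT40 arrays, where the background is 5.87% of 7826 clones, and 3 lay below 0 on all 4, where it is 4.82%. No clone passed limma's test in DT40 at a Benjamini-Hochberg adjusted p under 0.05 (0 of 7826, 0% higher and 0% lower), and 610 clones were under an unadjusted p of 0.05. At that unadjusted limit 17 of the 41 members were higher, with a background of 4.63%, and 3 were lower, with a background of 3.17%. The smallest adjusted p of a member was 0.492.

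The lean in DT40 lay mainly with the DT40subNB clones. Their median DT40 response was 0.39 over 24 members, with 11 above 0 on all 4 arrays, and that of the members from other libraries 0.08 over 17, with 2 above 0 on all 4. The library as a whole stood much nearer to 0. Over its 1060 clones measured on all 4 DT40 arrays and all 4 DKO-R arrays the median was 0.05, and 103 lay above 0 on all 4 DT40 arrays. At an unadjusted p under 0.05 in limma, 86 of these clones and 14 of the 24 members were higher in DT40. The DT40subNB members were highest on 1 array, culture A with DOX in Cy3, with a median of 0.56, and had medians of 0.08, 0.19 and 0.26 on the other DT40 arrays.

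The members with the largest response in DT40 among those above 0 on all 4 of its arrays were all DT40subNB clones. DT40subNB_4H2 had DT40 values of 1.04, 0.64, 0.32 and 0.44, a mean of 0.61 (SE 0.15). DT40subNB_13C11 had 1.29, 0.43, 0.46 and 0.12 with a mean of 0.58 (SE 0.16), and DT40subNB_9F2 had 1.21, 0.46, 0.35 and 0.24 with a mean of 0.57 (SE 0.16). Each was highest on the culture A array with DOX in Cy3, and culture A exceeded culture B. DT40subNB_8D11 was highest elsewhere, with 0.36, 0.39, 0.22 and 1.20 and a mean of 0.54 (SE 0.13). DT40subNB_17C1 gave 1.09, 0.26, 0.35 and 0.35, a mean of 0.51 (SE 0.13). The adjusted p of limma was 0.492 for each of these 5 clones.

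In DKO-S, where DOX shuts clathrin off as in DKO-R, the higher members showed no common lean above 0. Over the 45 measured on both kept arrays the median response was -0.18, against 0.00 over all clones that could be chosen (-0.0028), and 15 of the 45 had a mean above 0. Both arrays lay below 0 for 15 members, where the background is 19.9% of 7943 clones, and above 0 for 5, where it is 18.3%. No clone passed the adjusted threshold in limma (0 of 6622, 0% in either direction), and 255 were under an unadjusted p of 0.05. Of the 37 members tested, 13 were lower at that limit with a background of 2.84%, and 0 were higher with a background of 1.01%. The error in DKO-S was borrowed from DT40: with opposite dyes on its 2 arrays, their difference went into the dye term, and the spread came from both DT40 cultures.

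The lowest of these values were found in culture B and mostly among DT40subNB clones. On the culture B array the 30 DT40subNB members had a median of -0.79, with 23 of 30 below 0, while on the culture A array their median was -0.03, with 16 of 28 below 0. The higher members of other libraries had medians of 0.13 in culture B and -0.03 in culture A. On the culture B array 13 DT40subNB members lay below -1, the lowest at -1.72. A value below -1, a limit chosen after the values were seen, was found there for 1.19% of 8384 clones and for 2.71% of the 1291 DT40subNB clones measured. The same 13 clones had a median of 0.12 on the culture A array, with 8 of 13 above 0, and medians of 1.05, 0.32, 0.35 and 0.38 on the DT40 arrays. On the DKO-S array of culture B that failed the quality limit, 5 of the 13 were measured and all 5 lay below 0, from -1.69 to -0.78. Of all DT40subNB higher members, 17 of the 18 measured on that array lay below 0, with a median of -1.12, against -0.12 over the DT40subNB clones that could be chosen. The channel with DOX was near the floor there, with a median intensity of 87.5 against 82.6 for blank spots and 408 in the other channel. Median brightness percentiles were 94.5 for the DT40subNB higher members and 86.4 for the library. Whether the values on that array vary with brightness was not tested. With its DOX channel near the floor, the failed array is not used as a second reading of culture B. Some members departed from the pattern of the kept arrays. Of those given here, 2, both from other libraries, were named after their values were seen. The clone pgn1c.pk001.k18 was low on both kept arrays, at -0.43 and -0.55, and ChEST392H5 had -0.03 and -0.64. DT40subNB_8D11 was lower in culture A, at -0.65, than in culture B, at -0.22.

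**Figure D3:**
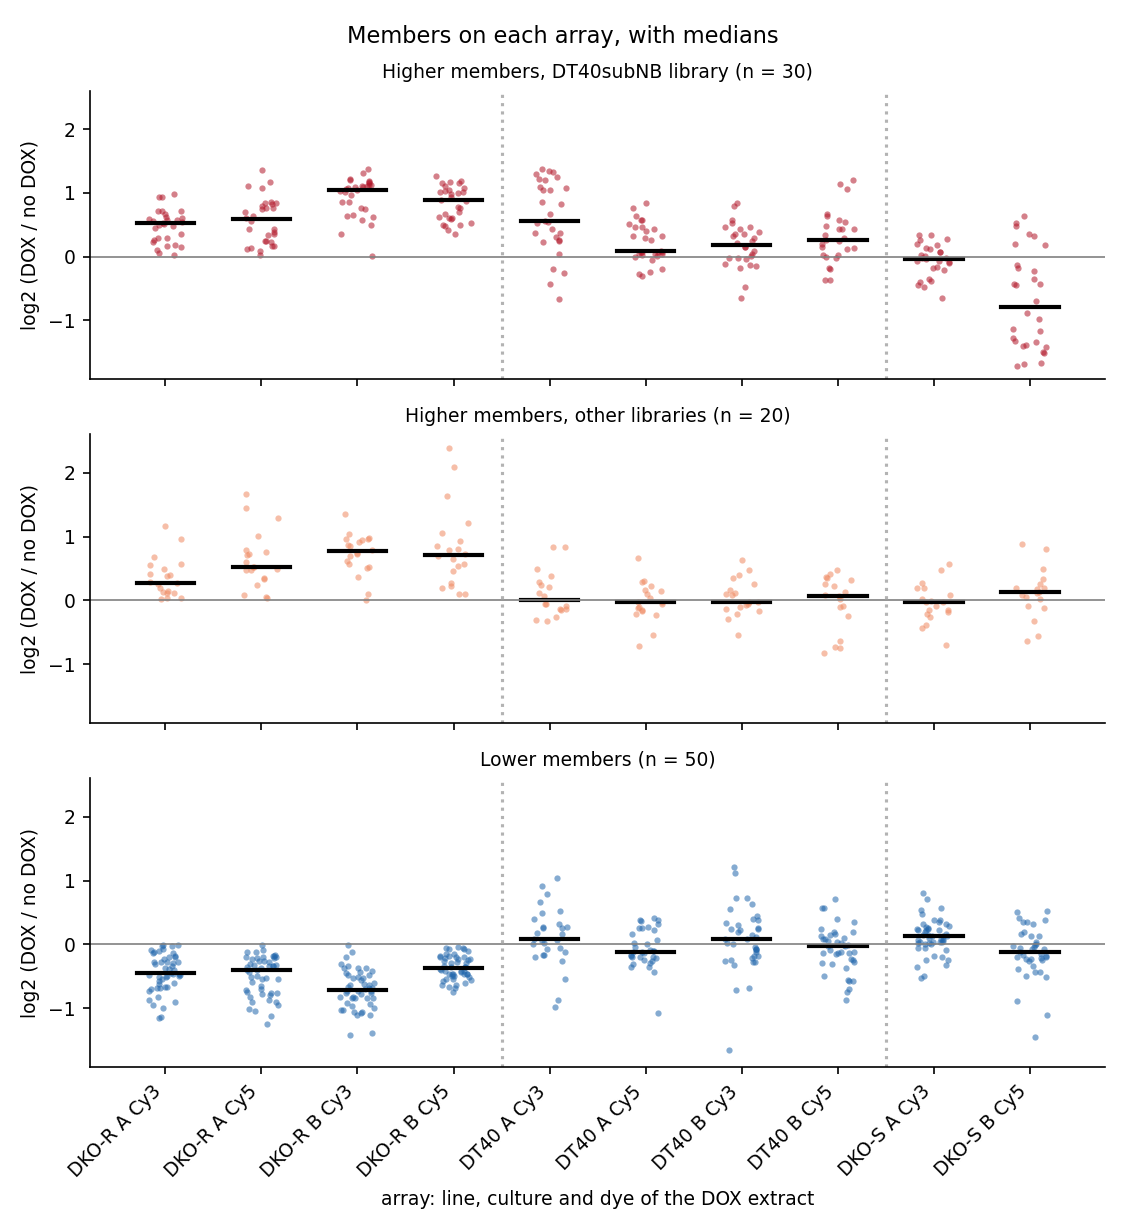
Log2 ratio of DOX over no DOX of each member (points) and their medians (bars) on 10 arrays, for the 30 higher members of the DT40subNB library, the 20 higher members of other libraries and the 50 lower members. The first group has medians from 0.08 to 0.56 on the DT40 arrays and -0.79 on the DKO-S array of culture B, and outside DKO-R the medians of the other groups lie from -0.11 to 0.13.

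The difference between the lines was tested as the DKO-S response minus that of DT40. No clone passed at an adjusted p under 0.05 in limma (0 of 6622, 0% in either direction), and 413 were under an unadjusted p of 0.05. Of the 37 higher members tested, 18 were lower in DKO-S at that limit, where the background is 4.33%, and 0 were higher, where it is 1.9%. All but 2 of these 18 were DT40subNB clones (16 of the 22 tested). Over the 1042 tested clones of that library that could be chosen, 91 were lower at the same limit and 17 higher. The median difference was -0.92 over the 22 DT40subNB members tested and 0.05 over the 15 others. In 6 of the 37, all 4 DT40 arrays lay above and both DKO-S arrays below 0, a pattern that 1.75% of all clones showed. The smallest adjusted p of a member was 0.552, for DT40subNB_9F2. Its DKO-S values were -0.35 and -1.69, and the difference from DT40 was -1.59 (SE 0.27). The calls depended on which DKO-S array was used. With the culture B array alone, 7 higher members, all DT40subNB clones, and 1 lower member passed the adjusted threshold as lower in the difference, where 0.295% of 6769 clones were lower and 1.39% higher. In DKO-S itself 1 higher and 1 lower member then passed as lower, where 0.207% of clones were lower and 1.42% higher. With the culture A array alone clones also passed in both comparisons, mostly as lower, but no member was among them. On that array the median was -0.026 over the higher members and 0.13 over the lower members. A fit with 1 DKO-S array takes its spread from DT40 and keeps the dye, so it cannot decide which array to trust.

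**Figure D4:**
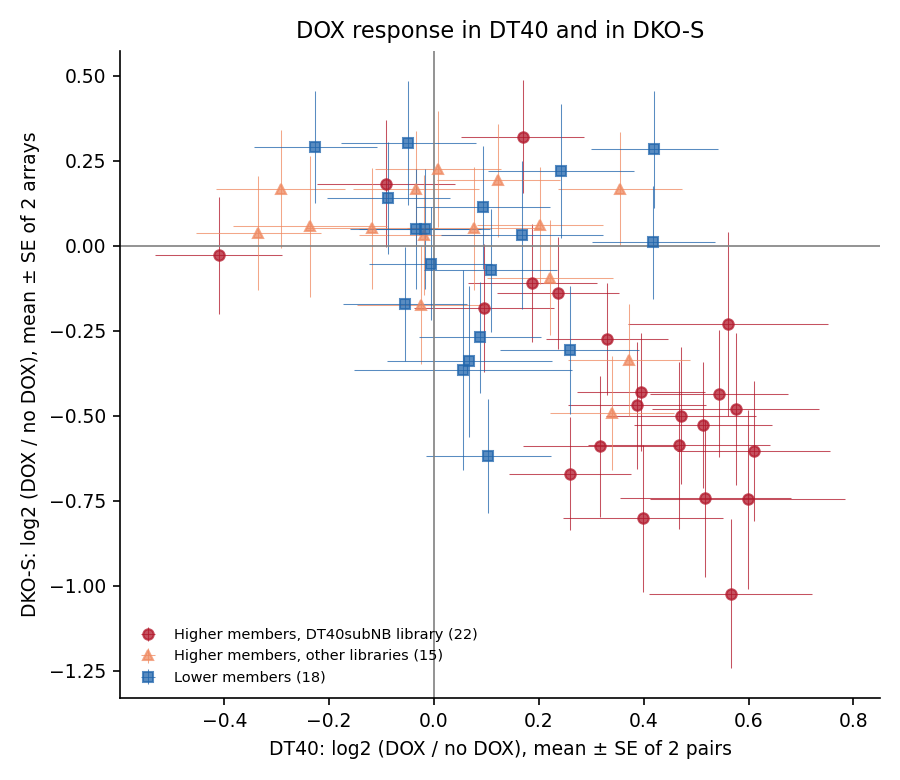
DOX response in DKO-S (y axis, mean of 2 arrays) against that in DT40 (x axis, mean of 2 dye-swapped pairs), both as log2 ratios, for the 55 members tested in both lines. Bars are the standard errors of the limma fit, which rest on the spread between the DT40 cultures. The DT40subNB members gather at the lower right, with DT40subNB_9F2 lowest at -1.02 in DKO-S. Most lower members and most of the other libraries lie nearer to 0, but the lower member ChEST395B11 reaches -0.62 in DKO-S, and pgn1c.pk001.k18 lies among the DT40subNB members with -0.49.

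The intensity of each channel was read for the side on which these ratios moved, although it also varies with dye and array. A level here is the log2 intensity of a clone minus the median of its channel. It sets a clone against the median spot of the array and was not used to rank clones against each other. The DT40subNB higher members were bright in DT40, with median levels of 1.93 to 2.53 without DOX and 2.66 to 2.79 with it. In DKO-R they stood at 1.99 to 2.51 without DOX and at 2.61 to 3.06 with it. On the kept DKO-S arrays the level was 1.75 with and 1.76 without DOX in culture A, and 2.11 without and 1.03 with DOX in culture B. The lowest of these medians was that of the DKO-S extract of culture B with DOX, read in Cy5 on 1 array. Levels under the same label also differed between arrays. The extract labelled DKO-S, culture A, without DOX read 1.76 on the kept DOX array and 2.14 and 2.60 on the direct arrays. The J chain clone puts the line names in doubt and does not show whether those of the direct arrays or of the DOX arrays are exchanged.

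**Figure D5:**
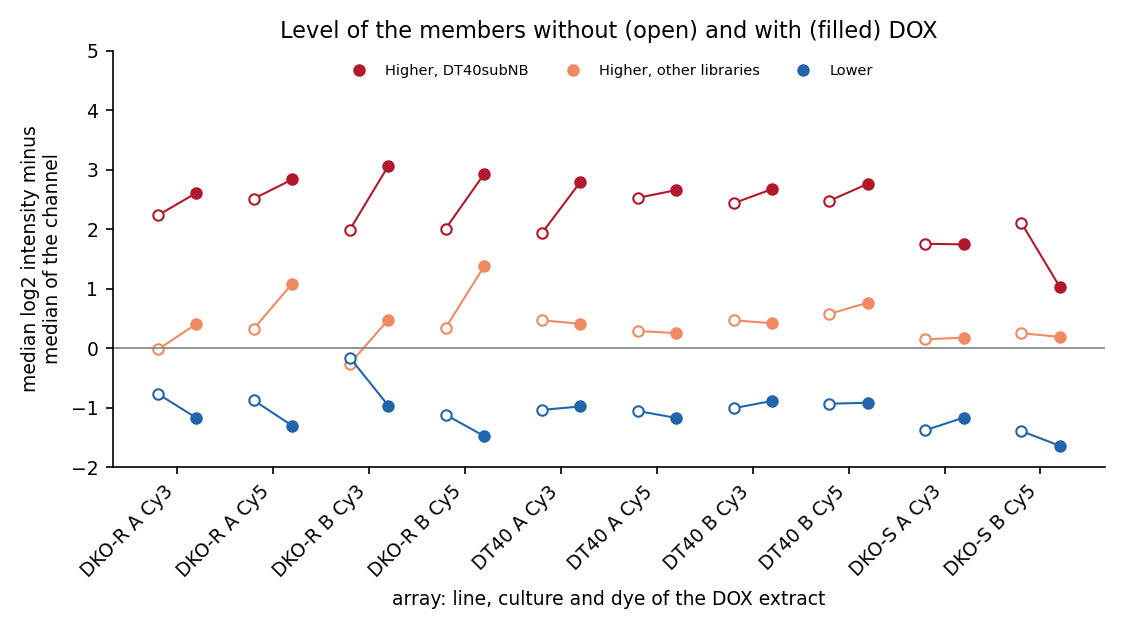
Median level of the members without DOX (open) and with DOX (filled) on 10 arrays, as log2 intensity minus the median of the channel (y axis), for the 30 higher DT40subNB members (red), the 20 higher members of other libraries (orange) and the 50 lower members (blue). The red line falls from 2.11 to 1.03 on the DKO-S array of culture B and rises or stays level elsewhere, and the lower members lie below the channel median throughout.

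The 5 highest members in DKO-R were all DT40subNB clones. DT40subNB_1B1 led with DKO-R values of 0.62, 1.08, 1.21 and 0.76, followed by DT40subNB_18B2 with 0.35, 1.102, 1.02 and 1.15. The DT40 values of DT40subNB_1B1 were 1.32, 0.32, 0.79 and -0.36, and its DKO-S values -0.08 and -1.41. It was thus near 0 in DKO-S culture A and low in culture B, as DT40subNB_18B2 was with -0.21 and -1.27. DT40subNB_16H3 had DKO-R values of 0.56, 0.76, 1.11 and 1.18, and 0.06 and -1.67 in DKO-S. DT40subNB_4A4 had 0.72, 0.85, 0.74 and 1.26 in DKO-R. Its DT40 values were above 0 on each array, at 0.56, 0.03, 0.43 and 0.02, but near 0 on both arrays with DOX in Cy5. In DKO-S it had -0.02 and -1.32. DT40subNB_4H7 had the narrowest DKO-R values of the 5, at 0.94, 0.84, 1.12 and 0.67 (SD 0.19), with 0.55, 0.06, 0.58 and 0.14 in DT40 and -0.10 and -0.45 in DKO-S.

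The next members measured on every array used included 2 clones from other libraries. DT40subNB_6C4 had DKO-R values of 0.53, 0.84, 1.21 and 0.93 and DKO-S values of -0.07 and -1.42, near 0 in culture A and low in culture B. DT40subNB_13C11 had DKO-R values of 0.58, 0.70, 1.08 and 1.02, and DT40subNB_9F2 had 0.72, 0.79, 0.58 and 1.00. ChEST299I6 was uneven, with DKO-R values of 0.29, 0.06, 0.96 and 2.10. Its 2 spots differed by up to 2.52 log2 units on a DKO-R array, and its mean was 0.08 (SE 0.13) in DT40 and 0.05 (SE 0.18) in DKO-S. The clone pgn1c.pk003.k3 had DKO-R values of 0.40, 1.02, 0.70 and 1.06 and split in DKO-S, at -0.69 and 0.81.

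Of the 37 higher members measured on all DT40 and kept DKO-S arrays, 4 lay above 0 on both DKO-S arrays with a DT40 mean under 0.2 in size. Over all clones that share was 15.5% of 6622, so these members were no more frequent than the background. DT40subNB_1A4 was the largest, with DKO-R values of 0.98, 0.24, 1.02 and 0.69, DT40 values of 0.23, 0.01, 0.28 and 0.15 and DKO-S values of 0.01 and 0.63. ChEST373F3 had 0.19 and 0.19 in DKO-S, but its DKO-R values of 0.15, 1.67, 0.38 and 0.10 rested on 1 array. Its spots differed by up to 3.67 log2 units on a DKO-R array. ChEST595M19 had 0.28 and 0.06 in DKO-S, and ChEST829P11 had 0.02 and 0.08. In limma none of these 4 passed the threshold for a difference from DT40, with DKO-S minus DT40 at 0.15 (SE 0.20), 0.07 (SE 0.20), 0.20 (SE 0.21) and 0.17 (SE 0.22) and adjusted p from 0.890 to 0.968. A single array also carried ChEST689C15, with DKO-R values of 0.19, 0.04, 0.01 and 2.40, which was named after its values were seen.

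The lower members were crowded into a few printed blocks. Of the 50, 17 were printed in block 9, which held 2.75% of the clones that could be chosen. Blocks 1, 9, 13 and 21, grouped here as those with the most lower members, held 35 of the 50. They held 10.5% of the clones that could be chosen. Block 9 moved as a whole on 2 of the DKO-R arrays. Its 212 clones that could be chosen had medians of -0.38 and -0.41 on the arrays of cultures A and B with DOX in Cy3, and of -0.08 and 0.00 on those with DOX in Cy5 (-0.0012). On the DT40 and kept DKO-S arrays their medians ran from -0.18 (DKO-S, culture B) to 0.25 (DT40, culture A with DOX in Cy3). On the DKO-R arrays the 17 members of block 9 had medians of -0.54 and -0.82 with DOX in Cy3 and of -0.35 and -0.27 with DOX in Cy5. The lower members of other blocks had medians of -0.34 and -0.64 with DOX in Cy3 and of -0.51 and -0.43 with DOX in Cy5. The part of the printed block in the low values was not tested.

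The lower members were also thinly measured. On the DKO-R arrays 46 of their 200 values came from 1 spot (23.0%), against 18 of 200 for the higher members and 11.3% for all clones that could be chosen. Of the 50, 22 were measured on all 4 DT40 arrays and 38 on both kept DKO-S arrays, where the higher members had 41 and 45. Those read on all 4 DT40 arrays were the brighter ones, with a median intensity percentile of 50.3 against 25.7 for the other 28.

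In DT40 the lower members showed no common lean below 0. The median over the 22 was 0.06, with 12 above 0, and on the single arrays it was 0.08, -0.11, 0.08 and -0.03, above 0 on both arrays with DOX in Cy3. All 4 arrays lay below 0 for 1 clone, ChEST107D3, at -0.12, -0.22, -0.08 and -0.29 (mean -0.18, SE 0.12, adjusted p 0.799 in limma), and above 0 for 3, against backgrounds of 4.82% and 5.87%. At an unadjusted p under 0.05, 0 were lower and 2 higher, against 3.17% and 4.63% of all clones. In DKO-S the median over 38 members was 0.04. The array of culture A had a median of 0.13, with 38 of 49 above 0, and that of culture B -0.11, with 26 of 39 below 0. Both arrays lay below 0 for 7 members and above 0 for 11, against 19.9% and 18.3% of all clones. Of the 18 tested, 1 was lower in DKO-S at an unadjusted p under 0.05 and 0 were higher, with backgrounds of 2.84% and 1.01%. In the difference from DT40, 2 were lower and 1 was higher, with backgrounds of 4.33% and 1.9%.

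The 5 lowest members in DKO-R were 3 ChEST clones of block 1 and 2 DT40subNB clones of block 9. ChEST288I5 had DKO-R values of -0.47, -1.01, -1.40 and -0.46, and DT40subNB_16F2 had -0.82, -1.05, -1.07 and -0.20. DT40subNB_16F2 was scattered elsewhere, with 0.79, 0.23, -0.24 and -0.56 in DT40 and 0.38 and -1.11 in DKO-S. ChEST976A13 had DKO-R values of -0.20, -0.76, -1.005 and -0.42, and ChEST533B5 had -0.28, -0.95, -0.64 and -0.46. ChEST288I5, ChEST976A13 and ChEST533B5 each lacked a value on at least 1 DT40 array and had 0.53 and -0.34, 0.35 and -0.17, and 0.38 and -0.04 in DKO-S. All 3 were thus above 0 in culture A and below 0 in culture B. DT40subNB_16B2 had DKO-R values of -0.87, -0.54, -0.70 and -0.27 and was the lone clone of the 5 below 0 on both DKO-S arrays, at -0.35 and -0.26, with 0.49, 0.37, 0.26 and -0.08 in DT40. Its difference between the lines was -0.57 (SE 0.23, adjusted p 0.794 in limma).

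The next lower members measured on every array used showed no shared direction outside DKO-R. ChEST860M24 rested mainly on 1 array, with DKO-R values of -0.52, -0.18, -1.42 and -0.15, and had DKO-S values of 0.06 and 0.04. ChEST695K19, with -0.47, -0.17, -1.06 and -0.56 in DKO-R, was above 0 on all DT40 and both kept DKO-S arrays. It had 0.06, 0.02, 0.73 and 0.17 in DT40 and 0.13 and 0.31 in DKO-S. ChEST91E3 had -0.31, -0.28, -1.12 and -0.54 in DKO-R, 0.66, -0.19, -0.07 and -0.03 in DT40, and 0.09 and 0.14 in DKO-S. ChEST468L7 was lowest on culture A with DOX in Cy5, at -0.01, -1.12, -0.63 and -0.39, and split in DKO-S, at 0.81 and -0.21. Of the 18 lower members measured on all these arrays, 2 lay below 0 on both DKO-S arrays with a DT40 mean under 0.2 in size, where the background is 14.6% of 6622 clones. DT40subNB_15C9, with DKO-R values of -0.67, -1.26, -0.19 and -0.06, had -0.25 and -0.43 in DKO-S. Its small DT40 mean of 0.07 averaged opposed values, 0.31, 0.38, 0.33 and -0.75. ChEST533K22, with -0.19, -0.50, -0.78 and -0.25 in DKO-R, had 0.26, -0.12, 0.24 and -0.03 in DT40 and -0.05 and -0.49 in DKO-S. Their differences from DT40 were -0.41 (SE 0.27) and -0.36 (SE 0.20), with adjusted p of 0.846 and 0.833 in limma.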

How the data were processed

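The authors scanned chicken EST arrays and deposited for each spot the intensity of both channels from BlueFuse for Microarrays 1.1, without normalisation, and a confidence as a fraction. They also deposited a table of log2 ratios of Cy5 over Cy3, used as an alternative only. It was taken as deposited, without the confidence filter and without centring, and its array medians ran from -0.31 to 0.24. Which channel was which dye was read from the labels. The number of arrays, not counting error, limits precision.

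Spots of confidence 0.30 or more were kept (26227 of 27648 spots are not controls), their log2 ratios had the array median subtracted, and were then averaged per clone and turned to DOX over no DOX. limma 3.58.1 in R 4.3.3 (lmFit, eBayes) fitted the 2 DT40 pairs (mean of both dyes, weight 2) and the 2 DKO-S arrays with over 50% of spots kept (weight 1), with a mean per line and a dye term, leaving 1 residual and 5.94 prior degrees of freedom. Benjamini-Hochberg adjustment ran over all clones tested. The fit was also run on simulated data, with independent noise of equal spread on each array. These data held no difference between cultures, so they cannot show how the fit handles culture and dye together in DKO-S. Members and lists were chosen with earlier results of these data known. Named are the 5 members of largest mean and the 5 next measured on all arrays used, members at the threshold, members with the DKO-R sign on all 4 DT40 arrays (up to 5), or on both DKO-S arrays with a DT40 mean under 0.2 (up to 5). Alternatives were loess (span 0.3), centring by printed block, other confidence limits, leaving out the dimmest 25% of clones or a culture, the deposited table, other models and, chosen after seeing the data, leaving out DT40subNB or block 9 members.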

Additional observations from a re-analysis of the deposited data

Results flagged for a closer look

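Among the 20 members named for their rank in DKO-R, 16 were measured on all 4 DT40 arrays, and these DT40 values were examined for an array far from the others. This was found for 1 clone, where chance gives about 5% of such sets. DT40subNB_15C9 was lowest at -0.75 in culture B with DOX in Cy5. The DKO-R values, which chose the members, were not examined in this way.

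In 4 named members all 4 DT40 arrays lay above 0 and both kept DKO-S arrays below 0. Their differences, DKO-S minus DT40, were -0.93 for DT40subNB_4A4, -0.60 for DT40subNB_4H7, -1.59 for DT40subNB_9F2 and -0.98 for DT40subNB_8D11. The last was named for its DT40 signs alone. None passed limma's adjusted threshold, with adjusted p from 0.552 to 0.768.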

How the results depend on the processing

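No clone was called in any of the 3 comparisons under the main settings, and most alternatives also called 0. The exceptions were the deposited log2 table, with 47 clones in DT40, 39 in DKO-S and 27 in the difference, a confidence limit of 0.60, with 7 in DT40, and all 4 DKO-S arrays, with 17 in DKO-S and 4 in the difference among 164 clones. The deposited values were neither centred on the array median nor filtered by confidence. The cause of these calls was not tested. Leaving out a culture gave 0 to 143 calls in DKO-S, 0 to 114 in the difference and 0 to 0 in DT40. In DKO-S and in the difference, the calls ran mostly higher with the culture B array alone and mostly lower with the culture A array alone. Fits with a lone DKO-S array assume that it varies like the DT40 pairs and do not remove the dye.

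The median of the higher members in DT40 moved to 0.15 in the deposited table and to 0.076 without DT40subNB members, and ran from 0.19 to 0.29 with a culture left out. In DKO-S it was -0.073 in the deposited table, -0.10 without the confidence filter and -0.27 at a limit of 0.60. It moved to 0.057 without DT40subNB members and was -0.20 on culture B and -0.026 on culture A alone. The median of the lower members in DT40 turned to -0.022 under block centring, and ran from -0.021 to 0.070 with a culture left out. In DKO-S it ran from -0.11 to 0.13. Other processing moved it to 0.12 in DT40 at a limit of 0.60 and, in DKO-S, to 0.0085 under block centring and 0.11 in the deposited table. Leaving out block 9 gave 0.07 in DT40 and 0.10 in DKO-S. For named members, 11 of 133 DT40 values and 4 of 154 DKO-S values changed sign under other processing.

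The choice itself depended on the processing. Of the 50 higher and 50 lower members, loess chose 32 and 38 again, block centring 34 and 22, no confidence filter 26 and 23, a limit of 0.60 24 and 9, and the deposited log2 values 18 and 17. Block centring left 3 block 9 clones among the lower ones. The DT40subNB library gave 30 of the 50 higher clones in the main setting and 34 under block centring. It gave 27 without the confidence filter, 23 at a limit of 0.60, 21 in the deposited table and 20 under loess. Between DT40 and DKO-R the culture letters showed no shared difference: across clones, A minus B correlated at 0.00 (0.00069). A minus B in DKO-S correlated at 0.14 with DT40 and at -0.32 with DKO-R. In DKO-S it also sets 1 dye against the other, so it cannot show whether the letters pair that line. The fit of all 6 DOX pairs called 0 clones in each comparison, with or without the replicate block.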

Other observations

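By their labels the direct arrays share the DKO-R extract of culture A without DOX with the arrays that chose the members. The J chain clone puts the line names in doubt, so the direction on the direct arrays may be the reverse. As labelled, they read the higher members at medians of 0.21 and 0.02 for DKO-R over DKO-S (DKO-R in Cy3 and in Cy5) and the lower members at 0.04 and 0.06. The 30 DT40subNB members had medians of 0.33 and 0.04. The DT40subNB clones that could be chosen had 0.10 and -0.0074, and all clones that could be chosen -0.0023 and -0.013. Levels without DOX were also read in the extract labelled DKO-S of culture A. For the 13 DT40subNB members below -1 on the DKO-S array of culture B, the median was 0.91 on the kept DOX array of this extract. On the direct arrays it was 2.00 and 2.31. The 20 higher members of other libraries stood at 0.15 against 0.50 and 0.43.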
